A study of Mus musculus with 6 samples.

Results

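Gad1, Gad2, Slc32a1, Slc6a9, Slc6a5, Slc6a11 and Abat make or break down GABA, or package or recapture GABA or glycine, the inhibitory transmitters of the retina. These 7 genes were taken by symbol from a table of 20175 genes. RNA was sequenced from the retina of mice on postnatal day 2, in 3 samples labelled Zeb2 mutant and 3 labelled control. The mutants carried loxP sites in both copies of Zeb2, the gene of a zinc-finger repressor that partners with Smads, together with the αCre driver, whose recombinase acts in progenitors of the peripheral retina and spares its centre. The controls are labelled as such, and their alleles, the strain of either group and any pooling of animals are not given in the sources used here.

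At this age GABA and glycine are used mainly by amacrine cells and horizontal cells, the inhibitory interneurons of the retina. Gad1 and Gad2 encode the glutamate decarboxylases GAD67 and GAD65, which convert glutamate to GABA: GAD67 works throughout the cell with its cofactor bound, while GAD65 sits on synaptic vesicles and is held in large part as an inactive reserve. Slc32a1 encodes the transporter VGAT that loads GABA or glycine into vesicles, Slc6a9 and Slc6a5 the plasma-membrane glycine transporters GlyT1 and GlyT2, Slc6a11 the GABA transporter GAT3, and Abat the mitochondrial GABA transaminase that breaks GABA down. Amacrine cells that use glycine take it up through GlyT1, and Müller glia and astrocytes clear GABA through GAT3.

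The libraries held 26041200, 28250928 and 26774660 reads on genes in the mutants and 26064213, 26246179 and 32614805 in the controls. Values are normalised counts, that is reads divided by a size factor per library, and replicate libraries varied beyond counting noise (chi-square per degree of freedom 8.04 to 14.89). Whether replicates are separate animals is not stated in the labels, so the tests cover the spread among these libraries, which may be technical. Zeb2 itself averaged 4968 ± 658 in mutants and 6118 ± 288 in controls (SD, n = 3 each; limma adjusted p = 0.129), and the retina genes Rbp3 and Crx were present in every library, with Crx at 21501.3, 22941 and 26955.8 in mutants and 22407.5, 21164.1 and 23319 in controls. Mesenchyme and astrocyte transcripts differed between libraries: 9 mesenchyme genes summed to 7200.1, 2853.2 and 612.4 in the mutants and to 637.9, 1376.4 and 825.8 in the controls, and 6 astrocyte genes to 7699.0, 6022.0 and 2330.9 in the mutants and to 1930.6, 2087.7 and 2600.5 in the controls. Mutant libraries 1 and 2 were thus high in both, and Lum was the only mesenchyme gene at 0 in any library. The 7 lens genes summed to 894.0, 655.0 and 3191.2 in the mutants and to 1137.3, 7924.7 and 2484.5 in the controls, highest in control library 2.

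The Gad1, Gad2 and Slc32a1 promoters are shown because these genes had the largest differences between groups and lie on the same chromosome, and because Zeb2 is known to bind DNA at CACCT. Zeb2 itself, the gene with loxP sites, also lies on chromosome 2 at 44983632 to 45117395, between Gad2 and Gad1. The control alleles and the strain are not given, and any part of linked sequence differences was not tested. Each sequence is the RefSeq window of 300 bases in GRCm38.p6, on the plus strand, 5′ to 3′, with 250 bases before the annotated start and 50 after it. Capitals mark CACCT, or AGGTG where it reads on the opposite strand. Gad2 lies at chr2:22622077-22622376, Gad1 at chr2:70561879-70562178 and Slc32a1 at chr2:158610508-158610807. The Gad1 window lies inside the annotated gene, downstream of its first base at 70553072, and that upstream end was not examined.
Gad1: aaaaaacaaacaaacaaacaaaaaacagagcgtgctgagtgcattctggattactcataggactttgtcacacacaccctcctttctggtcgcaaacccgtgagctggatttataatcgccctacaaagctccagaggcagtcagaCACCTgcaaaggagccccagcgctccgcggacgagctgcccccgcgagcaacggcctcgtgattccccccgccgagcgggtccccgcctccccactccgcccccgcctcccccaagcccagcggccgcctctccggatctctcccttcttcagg
Gad2: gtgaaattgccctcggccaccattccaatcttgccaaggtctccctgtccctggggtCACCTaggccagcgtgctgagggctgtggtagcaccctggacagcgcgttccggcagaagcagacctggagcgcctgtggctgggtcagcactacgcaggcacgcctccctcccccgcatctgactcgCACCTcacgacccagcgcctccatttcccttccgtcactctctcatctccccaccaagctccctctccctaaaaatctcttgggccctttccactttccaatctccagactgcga
Slc32a1: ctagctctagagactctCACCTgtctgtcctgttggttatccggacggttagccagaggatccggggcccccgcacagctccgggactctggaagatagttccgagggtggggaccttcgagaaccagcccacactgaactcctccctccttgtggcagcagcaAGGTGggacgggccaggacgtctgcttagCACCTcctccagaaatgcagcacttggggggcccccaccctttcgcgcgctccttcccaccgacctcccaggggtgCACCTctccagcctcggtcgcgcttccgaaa
Gad1 holds 1 CACCT, starting 104 bases before the start, Gad2 holds 2, and Slc32a1 holds 4. The match in Gad1 and 1 of those in Slc32a1 are followed by G and so read CACCTG, the longer form, which the Gad2 window does not hold on either strand. Of 32851 RefSeq promoter windows of this length, 51.9% hold at least 1 CACCT on either strand, 18.2% at least 2 and 1.14% at least 4, and 20.2% hold at least 1 CACCTG, which contains it. Windows were found for 6 of the 7 genes: Slc6a11 holds 2 CACCT, 1 of them in CACCTG, Slc6a5 holds 2 in 1 of its 2 windows, and Slc6a9 holds 2 in 1 of its 3 windows. A match of letters is not a bound site, and no binding was measured here.

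None of the 7 genes passed the test across all genes, limma with an adjusted p under 0.05, a threshold that 1.15% of the 16064 tested genes passed. All 7 were above the minimum mean of 10 normalised counts and were tested. Of the 7, 3 had an unadjusted limma p under 0.05, against 17.3% of all tested genes: Gad2 on the higher side, and Gad1 and Slc32a1 on the lower side. The median log2 fold change, mutant over control, was -0.079 over the 7 genes and -0.007 over all tested genes. DESeq2 on whole reads recovered from the table called these 3 genes (adjusted p = 0.0485 for Gad1, 0.00323 for Gad2 and 0.00505 for Slc32a1), where it called 5.66% of 15429 genes, while edgeR's quasi-likelihood test on the same reads called 0 of the 7, with 1.12% of all genes called.

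**Figure D1:**
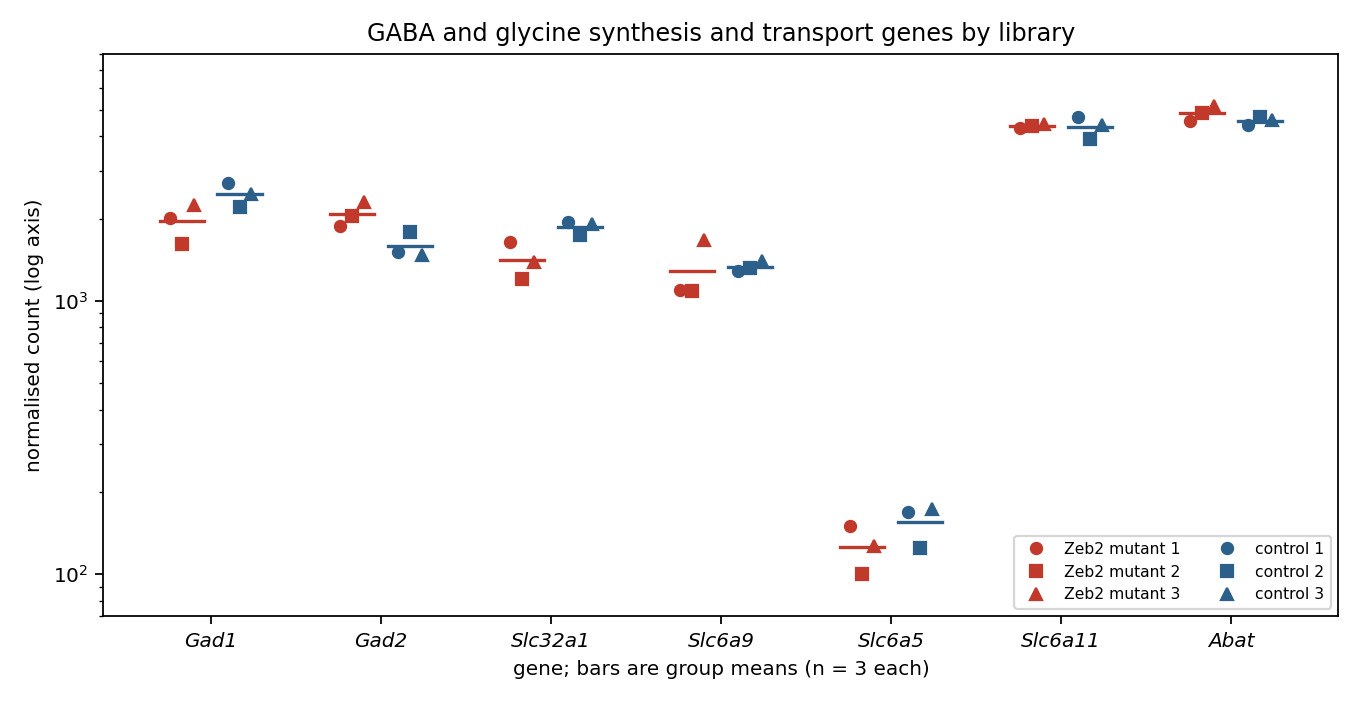
Normalised counts (log axis) of the 7 genes in the 3 Zeb2 mutant libraries (red, left of each pair) and the 3 control libraries (blue, right), with bars at the group means and 1 symbol per replicate number. Gad2 is higher in each mutant than in any control and Slc32a1 is lower, while the other 5 genes overlap between groups.

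The GABA-synthesising enzymes lay on opposite sides of control. Gad1 (ENSMUSG00000070880; GRCm38 chromosome 2, 70553072 to 70602014, plus strand) had 2006.6, 1616.7 and 2235.4 normalised counts in mutants, against 2698.3, 2212.5 and 2458.2 in controls. The groups overlapped by a single pair, since mutant library 3 stood just above control library 2, and mutant library 2 was the lowest of all. The means were 1953 ± 313 in mutants and 2456 ± 243 in controls (SD, n = 3 each), a log2 fold change of -0.34 ± 0.117 (SE) with a 95% interval of -0.60 to -0.073 (limma adjusted p = 0.182). With mutant library 2 left out the log2 fold change was -0.21. An antisense gene, Gad1os, overlaps the 5′ part of the Gad1 locus without sharing exonic bases, and it stood at 0 to 3.4 normalised counts.

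Gad2 (ENSMUSG00000026787; GRCm38 chromosome 2, 22622205 to 22693874, plus strand) had 1880.9, 2050.2 and 2293.3 normalised counts in mutants, against 1507.8, 1788.7 and 1465.6 in controls. Every mutant library lay above every control library, as for 11.5% of all tested genes on that side, and mutant library 3 was the highest. The mean was 2075 ± 207 in mutants and 1587 ± 176 in controls (SD, n = 3 each), or 130.7% of control, with a log2 fold change of 0.39 ± 0.093 (SE) and a 95% interval of 0.17 to 0.60. The limma adjusted p was 0.0858. It was 0.0433 with mutant library 1 left out, and 0.0566 to 0.291 with any other single library left out.

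Relative to Gad1, Gad2 was higher in each mutant library than in any control library. The ratio of Gad2 to Gad1 counts was 0.937, 1.268 and 1.026 in mutants, against 0.559, 0.808 and 0.596 in controls. No mutant ratio reached down to the highest control ratio, that of control library 2, the library highest in lens transcripts, whose part in the ratio was not tested, and the ratio was above 1 in mutant libraries 2 and 3 only. On the log2 scale the ratio averaged 0.095 ± 0.22 in mutants and -0.63 ± 0.28 in controls (SD, n = 3 each), a difference of 0.73 or a 1.65-fold higher ratio. The exact 2-sided permutation test over the 6 libraries gave p = 0.1, the smallest that 3 against 3 libraries allow. Because size factors cancel within a library, this difference stayed at 0.72 to 0.73 under 4 other scalings, and it was 0.602 to 0.888 with any single library left out. It was 0.667 in mutant library 3 alone, where the mesenchyme and astrocyte sums did not exceed the highest control.

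The sum of Gad1 and Gad2 did not separate the groups. It was 3887.5, 3666.9 and 4528.7 normalised counts in mutants, against 4206.1, 4001.2 and 3923.8 in controls, so that the mutants held both the lowest and the highest library. The means were 4028 ± 448 in mutants and 4044 ± 146 in controls (SD, n = 3 each; exact permutation p = 0.9). Per kilobase of annotated exon, Gad2 averaged 353 normalised counts in mutants and 270 in controls, and Gad1 256 in mutants and 322 in controls, and the ratio of Gad2 to Gad1 on this scale was 1.219, 1.649 and 1.334 in mutants, against 0.726, 1.051 and 0.775 in controls. Gad2 was the higher per kilobase in all 3 mutants and in control library 2.

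**Figure D2:**
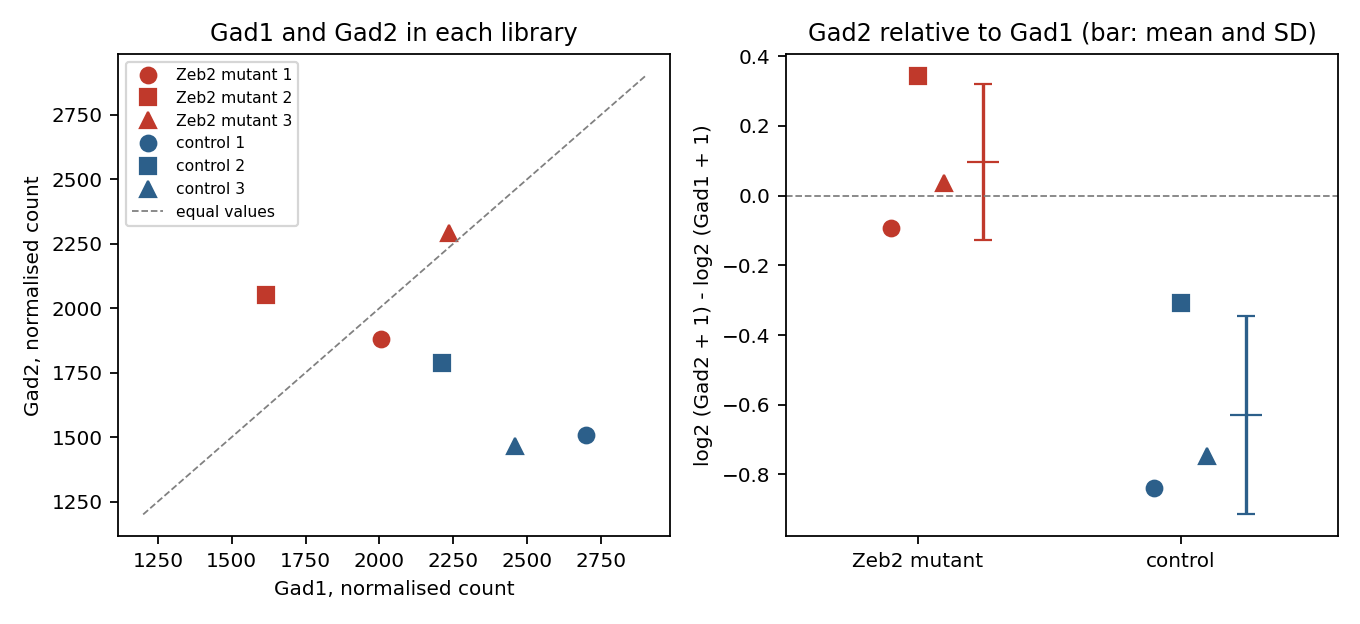
Left, normalised counts of Gad2 (vertical axis) against Gad1 (horizontal axis) in each Zeb2 mutant (red) and control (blue) library, with a dashed line where both are equal. Right, the log2 ratio of Gad2 to Gad1 per library with group mean and SD (n = 3 each): -0.093 to 0.343 in mutants and -0.839 to -0.307 in controls.

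The vesicular transporter lay on the side of Gad1. Slc32a1 (ENSMUSG00000037771; GRCm38 chromosome 2, 158610767 to 158615748, plus strand) had 1647.4, 1202.6 and 1384.3 normalised counts in mutants, against 1943.3, 1747.8 and 1907.4 in controls. All 3 mutants were below all 3 controls, as for 11.7% of all tested genes on that side, and mutant library 2 was again the lowest. The means were 1411 ± 224 in mutants and 1866 ± 104 in controls (SD, n = 3 each), so that mutants stood at 75.6% of control. The log2 fold change was -0.41 ± 0.104 (SE), with a 95% interval of -0.65 to -0.18 and a limma adjusted p of 0.095. The limma adjusted p was 0.0154 with mutant library 1 left out, where the log2 fold change was -0.53, and 0.145 to 0.304 with any other single library left out. Of the exonic bases of Slc32a1, 24.9% are shared with Gm14205, an antisense gene not analysed here, and no source used here states whether reads were counted by strand.

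The glycine transporters differed from each other in level and in spread. Slc6a9 (ENSMUSG00000028542; GRCm38 chromosome 4, 117834506 to 117875198, plus strand) had 1096.8, 1084.6 and 1674.8 normalised counts in mutants, against 1282.1, 1314.5 and 1394.6 in controls. Mutant libraries 1 and 2 were below every control and mutant library 3 was above every control. The coefficient of variation was 26.2% among mutants and 4.35% among controls, and the log2 fold change of -0.079 ± 0.15 (SE) had a 95% interval of -0.42 to 0.26 (limma adjusted p = 0.835). Its sign turned to 0.020 without mutant library 1 and 0.028 without mutant library 2. In libraries 1 and 2, where Slc6a9 was low, mesenchyme and astrocyte transcripts were high, and their part in this spread was not tested. Of the Slc6a9 exonic bases, 27.8% overlap Ccdc24 on the other strand, which averaged 54.7 normalised counts in mutants and 61.5 in controls.

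Slc6a5 (ENSMUSG00000039728; GRCm38 chromosome 7, 49910146 to 49963856, plus strand), known as the glycine transporter of spinal cord and brainstem neurons, was the least abundant of the 7 genes. It had 150.0, 99.7 and 127.0 normalised counts in mutants, against 168.2, 124.8 and 172.6 in controls. The groups overlapped, since control library 2 lay below mutant libraries 1 and 3. The log2 fold change was -0.31 ± 0.19 (SE), with a 95% interval of -0.74 to 0.12 (limma adjusted p = 0.451), and it rested on 103 to 204 reads per library. With mutant library 2 left out it was -0.15. Per kilobase of exon Slc6a5 averaged 17.4 normalised counts in mutants and 21.6 in controls, against 250 in mutants and 259 in controls for Slc6a9.

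The genes of GABA clearance overlapped between groups. Slc6a11 (ENSMUSG00000030307; GRCm38 chromosome 6, 114131241 to 114249952, plus strand) had 4309.1, 4375.2 and 4444.4 normalised counts in mutants, against 4692.8, 3916.2 and 4411.3 in controls. The mutants spanned a narrow range inside that of the controls, and the log2 fold change of 0.016 ± 0.065 (SE) had a 95% interval of -0.13 to 0.17 (limma adjusted p = 0.929). Its sign depended on control library 2, without which it was -0.056. Abat (ENSMUSG00000057880; GRCm38 chromosome 16, 8513429 to 8621568, plus strand) had 4534.2, 4888.9 and 5177.7 normalised counts in mutants, against 4396.7, 4706.2 and 4601.7 in controls. Mutant libraries 2 and 3 were above all controls and mutant library 1 was not, and the log2 fold change of 0.090 ± 0.057 (SE) had a 95% interval of -0.041 to 0.22 (limma adjusted p = 0.469). It was 0.044 with mutant library 3 left out and 0.14 with mutant library 1 left out.

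Ordered by normalised counts per kilobase of exon in mutants, Slc6a11 (867) came first, followed by Abat (628), Slc32a1 (505), Gad2 (353), Gad1 (256), Slc6a9 (250) and Slc6a5 (17.4). In controls the same scale gave Slc6a11 859, Slc32a1 667, Abat 590, Gad1 322, Gad2 270, Slc6a9 259 and Slc6a5 21.6. The order of Gad1 and Gad2, and that of Abat and Slc32a1, was thus exchanged between the group means. Neighbours that differed by less than the SD (n = 3 each) were Gad1 (256 ± 40.9) and Slc6a9 (250 ± 65.6) in mutants and Gad2 (270 ± 29.9) and Slc6a9 (259 ± 11.3) in controls. Among the tested genes, ranked by mean per kilobase over the 6 libraries, Slc6a11 stood at the 89.0th percentile, Slc32a1 at the 82.5th and Slc6a5 at the 17.5th.

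Most markers of the interneurons that use these transmitters were lower in mutants. Of 19 amacrine genes, 16 had a negative log2 fold change, 14 lay lower in every mutant than in any control (11.7% of all tested genes did), and the median was -0.39. Of these genes 1 was called lower, against 0.218% of all tested genes: Tfap2c, an AP-2 factor gene of amacrine cells (log2 fold change -0.56, limma adjusted p = 0.0255). Of 9 horizontal cell genes, 2 of which are also in the amacrine list, 7 were lower, 2 were called lower, against the same share of all tested genes, and the median was -0.53. By library, the amacrine median stood at -0.19, -0.49 and -0.45 relative to the control mean in mutants and at 0.025, -0.010 and -0.022 in controls. Of 14 tested Müller glia genes, 11 had a positive log2 fold change, the highest being that of Aqp4, which is also in the astrocyte list. The median of the 14 was 0.15, and 1 was called lower, Sox9 (limma adjusted p = 0.0379), against 0.218% of all tested genes. In such bulk samples fewer cells of a type and less RNA per cell cannot be told apart. The earlier results of these data that guided the choice of genes had already shown the amacrine and horizontal cell lists lower.

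Set against the amacrine markers of the same library, Gad1 and Slc32a1 stood near control. For this description, chosen after seeing the data, the mean log2 level of the 19 markers was subtracted from each gene's log2 level. The marker mean was itself 0.33 lower in mutants, so a gene whose level did not differ stands at 0.33 on this scale, the median of all tested genes was also 0.33, and 51.9% of them lay higher in every mutant than in any control, against 0.448% lower. Gad1 differed between groups by -0.005, Slc32a1 by -0.079 and Slc6a5 by 0.026, all below that median. Their log2 fold changes of -0.34, -0.41 and -0.31 were likewise below the median of all tested genes, -0.007. Slc6a9 differed by 0.26, Slc6a11 by 0.35 and Abat by 0.42, near the value of a gene that did not differ. Gad2 differed by 0.72, with relative levels of 0.693, 1.175 and 1.284 in mutants, against 0.218, 0.554 and 0.216 in controls. Pax6, Meis2 and others of the list are not limited to amacrine cells, and Slc6a11 and Abat are also used by glia, so the scale describes these libraries and no more.

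**Figure D3:**
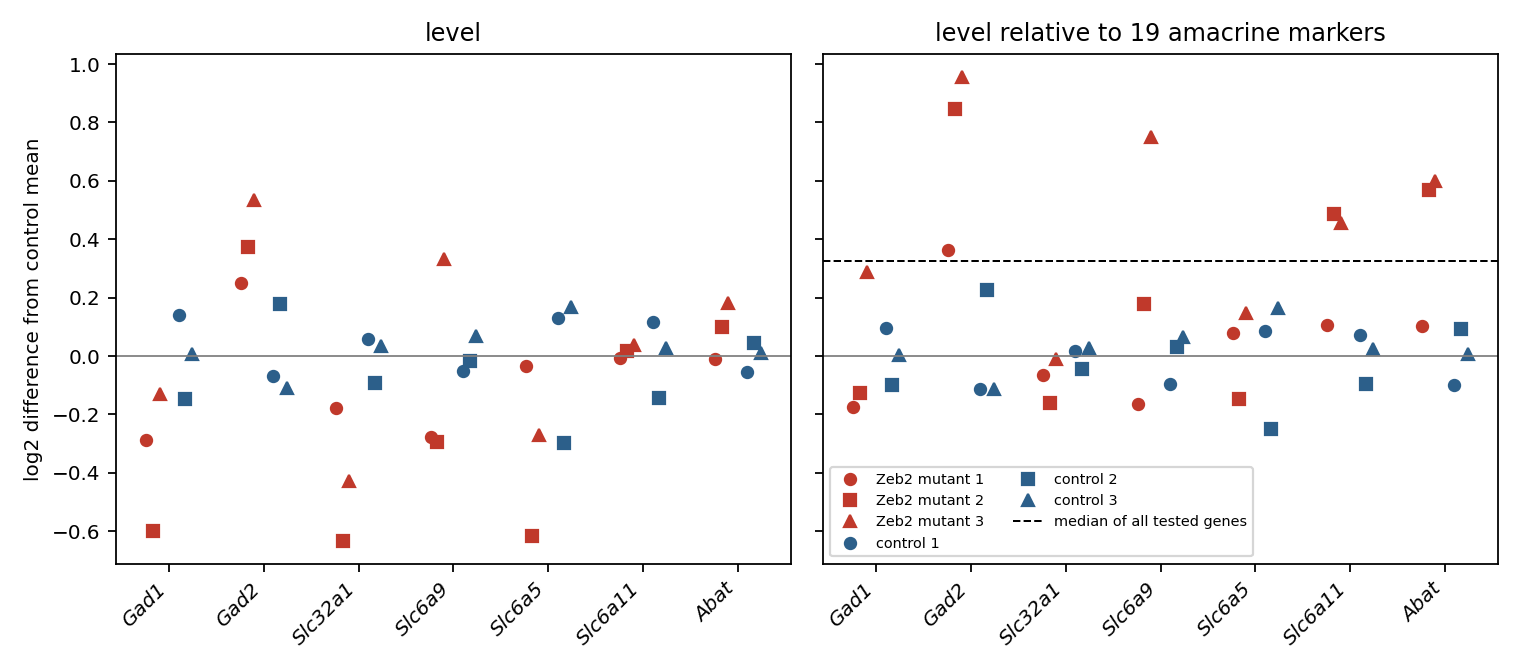
Log2 difference of each gene from its control mean in the 3 Zeb2 mutant (red, left of each pair) and 3 control (blue, right) libraries, as levels in the left panel and relative to the mean of 19 amacrine markers in the right panel. The dashed line marks the median of all tested genes on the relative scale, 0.33; Gad1 and Slc32a1 stand near 0 there (group differences of -0.005 and -0.079), and Gad2 stands at 0.72.

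The rest of the pathway held a single called gene. In a list of 33 genes for transmitter supply, uptake, breakdown, GAD65 and vesicle partners, chloride transport and postsynaptic scaffolds, 1 was called higher and 0 lower, where 0.928% and 0.218% of all tested genes were called. The list had a median log2 fold change of 0.015. The called gene was Slc38a5, which encodes an amino acid transporter for glutamine and glycine. It had 99.3, 92.9 and 103.6 normalised counts in mutants, against 38.3, 42.0 and 44.8 in controls. The groups were far apart compared with the spread inside either, and Slc38a5 rose 2.33-fold (log2 fold change 1.22 ± 0.159 SE; limma adjusted p = 0.0156). The limma adjusted p was 0.0866 with control library 1 left out, 0.0520 with mutant library 2 left out and 0.0534 with mutant library 3 left out.

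Among the abundant genes of this list, Glul, the glutamine synthetase gene of Müller glia, averaged 17710 in mutants and 18260 in controls (limma adjusted p = 0.699). Its mutant values all lay below its control values. Gldc of the glycine cleavage system averaged 10470 in mutants and 10830 in controls (limma adjusted p = 0.728). Both genes that interconvert serine and glycine, Shmt1 and Shmt2, were lower in every mutant than in any control, with log2 fold changes of -0.44 and -0.26 (limma adjusted p = 0.0682 and 0.130). Slc38a2, a glutamine transporter gene, was also lower throughout at -0.31 (limma adjusted p = 0.153). Of the 33 listed genes, 6 lay lower in every mutant than in any control, against 11.7% of all tested genes. Higher in every mutant were 5, against 11.5%. Among genes that act with GAD65 or at vesicles, Dnajc5, Zdhhc17, Sv2a and Sv2c stood at -0.031, 0.050, 0.016 and -0.20, all with overlapping groups, and no difference from Gad2 was tested. The chloride transporter genes Slc12a2 and Slc12a5, which set whether GABA excites or inhibits, had log2 fold changes of 0.11 and -0.008 (limma adjusted p = 0.455 and 0.959).

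**Figure D4:**
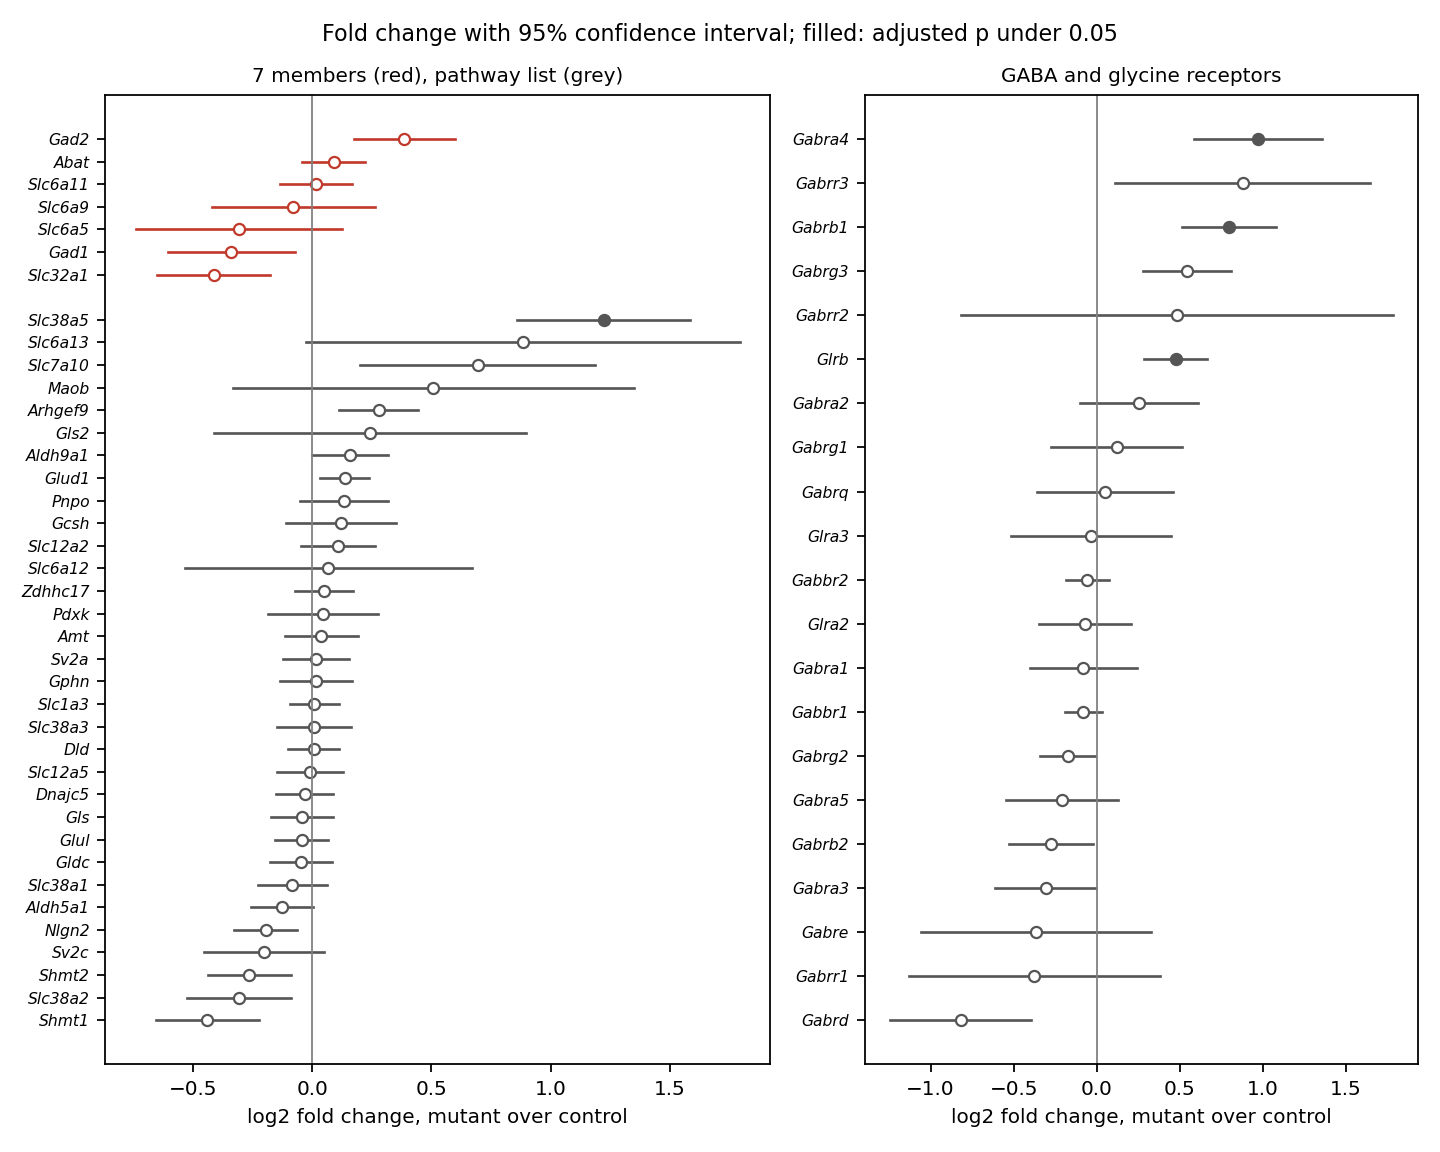
Log2 fold changes (mutant over control, horizontal axis) with 95% confidence intervals from limma for the 7 genes (red), other pathway genes (grey, left) and tested receptor genes (right); filled points passed an adjusted p under 0.05. Slc38a5, Gabra4, Gabrb1 and Glrb are the filled points, and none of the 7 red points is filled.

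Receptors for these transmitters included 3 called genes, all higher. Of 25 receptor genes listed, 23 were in the table and 22 tested, with a median log2 fold change of -0.048, and 3 were called higher and 0 lower, where 0.928% and 0.218% of all tested genes were called. Gabra4, a GABA-A receptor subunit gene, had 137.4, 185.8 and 150.3 normalised counts in mutants, against 71.3, 75.5 and 93.1 in controls (log2 fold change 0.97 ± 0.169 SE; limma adjusted p = 0.0368). Gabrb1, another subunit gene of that receptor, had 211.3, 205.1 and 250.9 in mutants, against 126.7, 119.6 and 135.4 in controls (0.80 ± 0.125; limma adjusted p = 0.0258). Glrb, the glycine receptor beta subunit gene, had 766.1, 727.6 and 812.5 in mutants, against 513.3, 537.1 and 610.1 in controls (0.48 ± 0.083; limma adjusted p = 0.0370). For all 3 the mutant values lay above every control value, as for 5 of the 22 tested receptor genes and 11.5% of all tested genes.

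Gabrd, the delta subunit gene of the GABA-A receptor, was lower in every mutant (log2 fold change -0.82, limma adjusted p = 0.0774). Of the 22 tested receptor genes, 3 lay lower in every mutant than in any control, against 11.7% of all tested genes. The abundant receptor genes Gabbr1 and Gabbr2 had log2 fold changes of -0.080 and -0.056, with overlapping groups. The 3 calls were sensitive to single libraries: the limma adjusted p of Gabra4, Gabrb1 and Glrb was 0.161, 0.120 and 0.161 with control library 1 left out, 0.132, 0.0723 and 0.0895 with mutant library 2 left out, 0.0882, 0.0742 and 0.106 with mutant library 3 left out, and 0.0864, 0.0714 and 0.0985 with control library 2 left out. With control library 3 left out it was 0.0545 for Gabra4 and 0.0580 for Gabrb1.

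The genes whose log2 values over the 6 libraries were most like those of Gad1, among 13295 others with a mean of at least 50, were Cse1l, Gabbr1 and Ddx20 (Pearson r = 0.991, 0.990 and 0.989). Each had a smaller difference than Gad1, with log2 fold changes of -0.055, -0.080 and -0.072. Most like Gad2 were 1810011O10Rik, Fbxw9 and Pigg (Pearson r = 0.996, 0.990 and 0.986), with log2 fold changes of 1.16, 0.16 and 0.16 (limma adjusted p = 0.0965, 0.198 and 0.303). These likenesses describe 6 libraries that share their groups and depth, and each was the best of that many candidates.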

How the data were processed

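Poly-A RNA sequencing of mouse retina was deposited as 1 table of normalised counts, a signal per gene and library that the authors rounded to 1 decimal, per the file headers. Tools named in the submitters' processing notes, without roles, are STAR 2.4.2a, cutadapt, HTSeq and DESeq2, and the build is GRCm38. Groups and replicate numbers came from the sample titles. In each library 100% of values lay within 0.06 of whole multiples of 1 step (0.846 to 1.06 per read), so whole reads were recovered. Values were tested as log2(normalised count + 1), a scale that understates changes of low genes, by limma 3.58.1 in R 4.3.3 (trended variance, genes averaging 10 or more, 16064 in all). The p-values are 2-sided, adjusted by Benjamini-Hochberg over all of them and called under 0.05. Alternatives were other pseudocounts, filters, scalings and variance models, a replicate block, edgeR 4.0.16 and DESeq2 1.42.0 on recovered reads, and leaving out libraries. The fit was tested on simulated data. There it called 50% of genes set to a log2 change of 0.5, 57.5% of those set to -0.5, and 13 unchanged genes. Exon lengths and coordinates are from GENCODE M21 (20115 of 20175 IDs matched), and promoter sequences from RefSeq.

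The 7 genes, the lists and the tests were chosen with earlier results of these data known. The naming rule took the 7 genes, called and the 3 most abundant members of the pathway and receptor lists, Zeb2, and the 3 genes most like Gad1 and Gad2; other genes named were chosen after their values were seen. Of the listed symbols, Gabra6, Glra4 and Rpe65 were not analysed here, and Septin4 was read under its older symbol Sept4. Some genes taken by the rule are not reported here. Abat is named without a promoter.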

Additional observations from a re-analysis of the deposited data

How the results depend on the processing

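The difference in the Gad2 to Gad1 ratio was positive in all 14 alternatives run, from 0.602 to 0.888, its values when 1 library was left out. Library-wide scalings, pseudocounts and the replicate block could hardly move this difference. Only quantile scaling and leaving out libraries could have changed its sign. No member was called by limma, against 3 with DESeq2, 1 with a replicate block (Slc32a1, adjusted p = 0.0472) and 0 to 2 with 1 library left out. The count over all genes was 184, against 874 with DESeq2, 248 with a replicate block, 252 with a robust variance, 26 without a filter and 27 to 600 with 1 library left out. The pathway count was 1, against 6 with DESeq2, 2 with a replicate block or a robust variance, 0 without a filter or without mutant libraries 1 and 2, and 0 to 2 with 1 library left out. The receptor count was 3, against 5 with DESeq2, 0 without a filter or without mutant libraries 1 and 2, and 0 to 5 with 1 library left out. The cause was not tested. With a replicate block the adjusted p of Gabra4 was 0.0511. The labels do not say whether replicate numbers pair the samples, and residuals of 3 libraries per group cannot settle it. The column names number controls and mutants in a single series, so that no number is shared there. Same-numbered libraries had residual correlations of 0.016, 0.149 and -0.063, and mutant libraries 1 and 2, but not 3, correlated best with the control of their own number. For mutant library 1 this was 0.016 against 0.01 with control library 2, hardly a difference. The sign of Slc6a9 turned to 0.020, 0.028 and 0.333 without mutant library 1, 2 or both, (-0.285 to 0.028 with 1 library left out), and to 0.255 relative to amacrine markers, that of Slc6a5 to 0.026 on that scale, and that of Slc6a11 to -0.056 without control library 2 (-0.056 to 0.074 with 1 library left out). Gad1, Gad2, Slc32a1 and Abat kept their direction in all 21 alternatives, but some of these could not turn it. Filters, the robust variance and the replicate block left the log2 fold changes as they were, and other pseudocounts hardly moved them. The scale relative to amacrine markers raises every gene by 0.33, so it could not reverse Gad2 or Abat. On that scale Gad1 was at -0.005 and Slc32a1 at -0.079.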
